A study of Mus musculus with 30 samples.

Results

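The host difference of lung macro-metastases was taken from 10 of 30 RNA sequencing libraries, 5 from BALB/c hosts and 5 from NSG hosts, chosen by the strain, organ and day in their labels and not by any measured value. All 30 libraries held 4T1-tdTomato cells, derived from a mammary carcinoma that arose in a BALB/c mouse and made visible by a red fluorescent protein. They were sorted from female mice as live (DAPI-negative), CD45-negative, tdTomato-positive single cells. Before the sort, tissue of every group was digested with collagenase IV and DNase I with the ROCK inhibitor Y-27632 present. The BALB/c macro-met group had 500000 cells injected in the tail vein and was taken on day 21 (4 libraries) or day 23 (1 library), and the NSG macro-met group had 500000 cells by the same route and was taken on day 19 (4 libraries) or day 20 (1 library). The other 20 libraries served for tests of difference and for the shared estimate of the spread, 5 for each host in each group. They were DTC, a label that is not spelled out, taken from lung on day 7 after the same injection, and mammary tumours grown from 200000 cells in the fat pad and taken on days 21 to 22 (BALB/c) or day 10 (NSG). The NSG strain has no T, B or NK cells and impaired macrophages and dendritic cells, whereas the BALB/c host is immunocompetent and of the strain from which 4T1 arose. Host, day and the numbers in the library titles (57 and 58 in BALB/c, 98 and 100 in NSG) changed together in the macro-mets and cannot be told apart, and no value within 1 title number or day could be had. The labels do not say whether libraries came from separate animals, so p-values measure only the spread between these libraries.

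Interferon gamma, made mostly by T and NK cells, acts through JAK kinases and transcription factors that bind GAS elements, while type I interferons act through a related factor complex at ISRE elements. Targets of both include the guanylate-binding proteins and immunity-related GTPases of cell-autonomous defence, and the genes that load peptide on MHC class I for CD8 T cells. MHC class II, which presents peptide to CD4 T cells, depends on the transactivator CIITA, which in cells outside the immune system is induced by interferon gamma and is recruited to an X and Y box module in class II promoters.

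Promoter stretches of genes described below are printed first, to show the letters at which these factors are known to act. They are from RefSeq on GRCm38.p6, 5′ to 3′ on the gene's strand, and end before the transcription start. Capitals mark every match to GAAA, any 2 bases and GAAA again, or its reverse complement (ISRE-like), in 6 genes and to CTGATTGG (Y box) in 2 genes. Both strands were searched, and overlapping matches were each marked.
Gbp2 (chr3:142620564-142620653, plus strand, ISRE-like): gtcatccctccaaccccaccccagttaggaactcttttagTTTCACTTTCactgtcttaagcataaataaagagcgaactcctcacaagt
Gbp3 (chr3:142559965-142560043, plus strand, ISRE-like): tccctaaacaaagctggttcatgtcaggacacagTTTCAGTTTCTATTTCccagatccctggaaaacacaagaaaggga
Igtp (chr11:58199482-58199555, plus strand, ISRE-like): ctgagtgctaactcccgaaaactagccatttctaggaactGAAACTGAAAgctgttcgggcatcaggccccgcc
Irgm2 (chr11:58214873-58214962, plus strand, ISRE-like): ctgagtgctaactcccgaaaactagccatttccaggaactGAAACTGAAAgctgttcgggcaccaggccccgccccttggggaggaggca
B2m (chr2:122147508-122147597, plus strand, ISRE-like): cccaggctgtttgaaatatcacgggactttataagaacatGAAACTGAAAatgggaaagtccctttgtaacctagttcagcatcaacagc
Bst2 (chr8:71537547-71537636, minus strand, ISRE-like): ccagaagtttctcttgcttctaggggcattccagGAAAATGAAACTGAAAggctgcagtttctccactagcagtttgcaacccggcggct
H2-Eb1 (chr17:34305765-34305852, plus strand, Y box): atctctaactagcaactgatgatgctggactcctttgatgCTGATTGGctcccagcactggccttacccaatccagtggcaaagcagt
H2-Aa (chr17:34287827-34287914, minus strand, Y box): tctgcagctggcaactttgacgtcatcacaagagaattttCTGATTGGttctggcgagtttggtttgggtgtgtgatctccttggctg
The Igtp and Irgm2 stretches, from neighbouring genes of the same family, were alike at 72 of the 74 bases that could be compared. Windows of 300 bases (250 before to 50 after the start) were matched by symbol for 11767 of the 17774 genes tested. The ISRE-like letters were in 51 of 214 genes that rose in BALB/c macro-mets (23.8%), 3 of 104 that fell (2.88%) and 453 of all 11767 (3.85%). The GAS-like letters TTCNNNGAA, a palindrome in its fixed letters, were in 36 of the 214 genes that rose (16.8%), 10 of the 104 that fell (9.62%) and 981 of all (8.34%). All 5 guanylate-binding protein genes and all 6 immunity-related GTPase genes with a window held the ISRE-like letters. The Y box was in 3 of 6 class II genes with a window and in 725 of the 11767 genes tested (6.16%). A match describes letters only, and absence of a match says nothing of a factor.

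In BALB/c macro-mets, compared with NSG macro-mets, 470 of 17774 genes tested passed edgeR's quasi-likelihood test, with p-values adjusted by the Benjamini-Hochberg method and a threshold of 0.05 (2.64%). Of these, 335 were higher (1.88%) and 135 lower (0.76%). The groups did not overlap in 1240 of all genes tested (6.98%; 550 higher, 3.09%, and 690 lower, 3.88%) and in 407 of the 470. The rises were the larger changes: their median log2 fold change (BALB/c over NSG) was 1.34, against -0.71 for the falls, and 218 of the 335 were past 2-fold, against 34 of the 135. The median over all genes tested was -0.01. Other settings have their own background over the 17774 genes: DESeq2 called 549 higher and 375 lower, and voom 347 higher and 243 lower. At an unadjusted p under 0.05 there were 1305 higher and 1452 lower. Lists of interferon-response and antigen-presentation genes held 118 tested genes, of which 92 were called higher and 0 lower (also 0 lower at an unadjusted p under 0.05, with DESeq2 or with voom). DESeq2 called 100 of the 118 higher and voom 79. With edgeR the genes of these lists made up 27.5% of those called higher and 18 of the 20 smallest p-values. With offsets for the GC content and length of each gene, the split was 462 higher and 451 lower. The count of falls moved with single libraries: it was 62, 61 and 62 without BALB/c macro-met replicates 1, 4 and 5, and 70 and 81 without NSG macro-met replicates 3 and 4. Without the day 23 and day 20 libraries (BALB/c replicate 5 and NSG replicate 5) the counts were 218 higher and 47 lower.

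**Figure D1:**
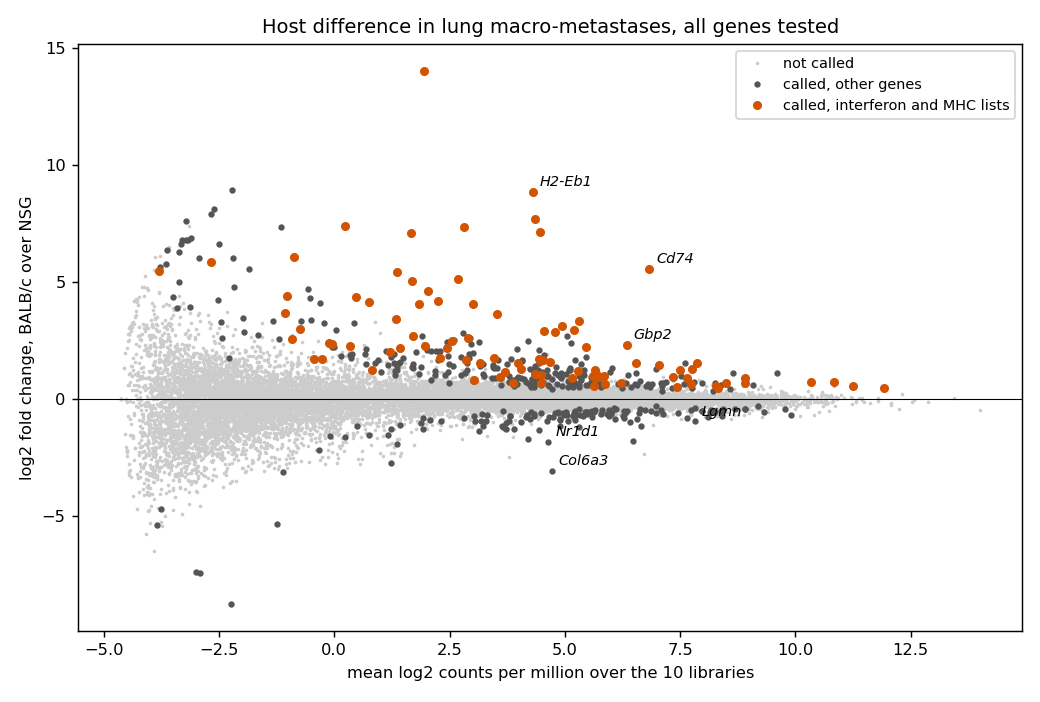
Each point is 1 of 17774 genes tested, with the mean log2 CPM over the 10 macro-met libraries on the horizontal axis and the log2 fold change of BALB/c over NSG on the vertical axis. Called genes of the interferon and MHC lists (orange) all lie above 0; the fitted value of a gene with no read in one host, mostly at the far left, depends on the prior count.

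Total counts were 33649294 to 61780104 per library in BALB/c macro-mets and 34582968 to 61037353 in NSG macro-mets. The summed level of 10 carcinoma markers of 4T1 (such as Epcam and Krt8) was 4699 to 7047 CPM (read counts scaled to a common library size) in BALB/c macro-mets and 5481 to 6244 CPM in NSG macro-mets. Krt8 alone made 47.8% of this sum, which was read in all 10 libraries and does not test the purity of the sort. NSG macro-met replicate 3 stood apart: its median correlation with the other 9 libraries was 0.933, against 0.973 to 0.979 for those, it had 18297 genes detected against 19748 to 20965, and its skeletal and heart muscle markers summed to 328 CPM, against 14.8 to 31.6 CPM. The summed markers overlapped between the hosts for lung epithelium (150 to 205 CPM in BALB/c, 142 to 178 CPM in NSG), endothelium (202 to 271 CPM in BALB/c, 201 to 263 CPM in NSG) and macrophages and monocytes (28.6 to 93.6 CPM in BALB/c, 57.9 to 94.5 CPM in NSG). Single genes made much of these sums: Abca3 69.4% of the lung epithelium sum and Eng 81.6% of the endothelium sum. Without that gene, lung epithelium markers summed to 35.3 to 90.7 CPM in BALB/c and 23.4 to 50.3 CPM in NSG, and endothelium markers to 18.9 to 57.9 CPM in BALB/c and 25.9 to 63.3 CPM in NSG. The T and NK cell markers did not overlap, at 5.97 to 8.56 CPM in BALB/c and 3.88 to 4.90 CPM in NSG. Lck made 47.9% of that sum. Without it the sums were 1.96 to 5.20 CPM in BALB/c and 1.67 to 3.19 CPM in NSG. Of these 20 genes 18 were under 1 CPM in all 10 libraries. Only 10 of the 20 passed the filter on low counts, and these all had a log2 fold change above 0. A low gene can pass that filter through 1 group where it is high, so this shared sign can be partly fixed by the filter. Fasl, which was not tested, had its only read in an NSG library. Among the 10 tested, 0 were called with edgeR, with DESeq2 and voom 1 each was higher, and 3 were higher at an unadjusted p under 0.05. Ifng itself had at most 0.121 CPM in a BALB/c library and was at 0 in every NSG library. B cell markers summed to 0.236 to 2.80 CPM in BALB/c (median 2.04 CPM) and 0.129 to 2.04 CPM in NSG (median 0.304 CPM). BALB/c replicate 1 was the lowest of its group, and NSG replicate 3 was the only NSG library above 0.384 CPM. The mesothelium and adipocyte list, most of it Msln, did not overlap, at 50.9 to 89.1 CPM in BALB/c and 134 to 171 CPM in NSG.

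**Figure D2:**
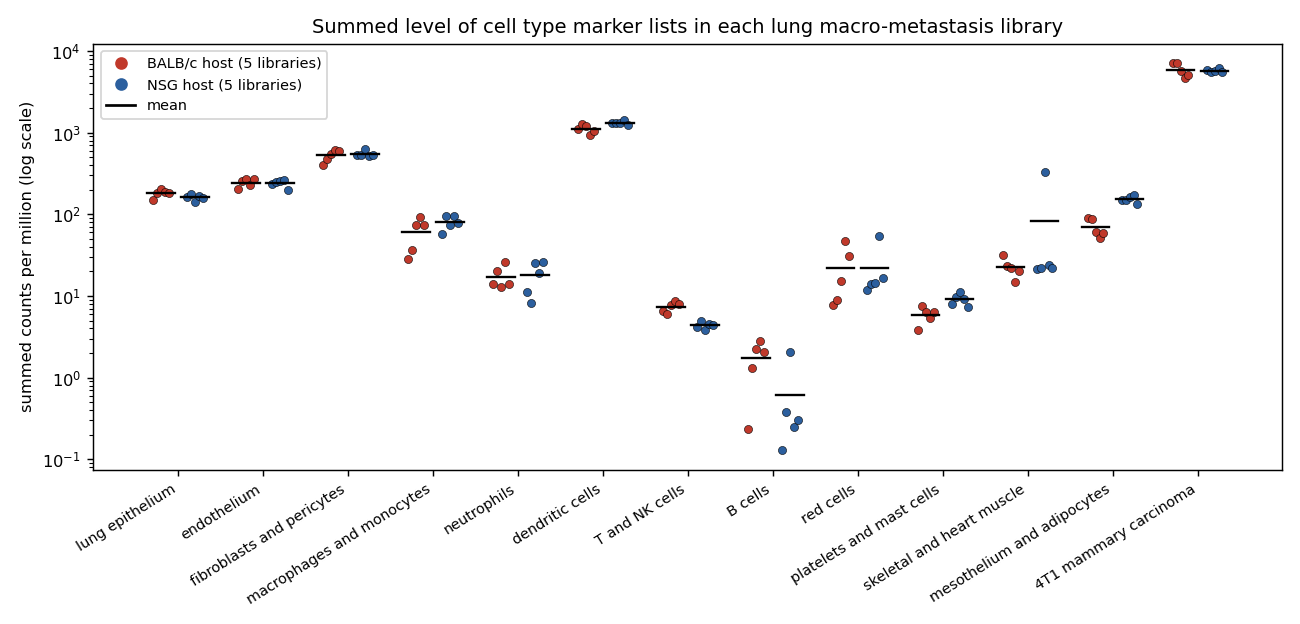
Summed CPM (log axis) of 13 marker lists in each library, BALB/c host left and NSG host right of each tick, with lines for means. Carcinoma markers lie at 4699 to 7047 CPM in BALB/c and 5481 to 6244 CPM in NSG, and 1 NSG library carries muscle markers at 328 CPM.

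MHC class II genes showed the largest rises. All 10 members tested were called higher in BALB/c macro-mets, with a median log2 fold change of 7.12, and 10 of 10 were also called higher in DTC and in tumours of BALB/c hosts. Here and below, ± is the SE of a log2 fold change and the SD over 5 libraries of a CPM value. H2-Eb1, a beta chain of the class II molecule, had 213, 410.4, 364, 579 and 659.7 CPM in BALB/c macro-mets, against 0.461, 1.43, 0.962, 1.1 and 0.836 CPM in NSG macro-mets, each in the order of replicates 1 to 5. For H2-Eb1 the log2 fold change was 8.86 ± 0.46 (adjusted p = 2.71e-11). The lowest BALB/c library, replicate 1, was far above the highest NSG library. H2-Aa, an alpha chain, averaged 302 ± 107 CPM in BALB/c and 2.08 ± 1.89 CPM in NSG (log2 fold change 7.15 ± 0.52, adjusted p = 3.06e-08). H2-Ab1, its partner beta chain, averaged 338 ± 115 CPM in BALB/c and 1.59 ± 1.47 CPM in NSG (log2 fold change 7.67 ± 0.52, adjusted p = 9.12e-09). Both had replicate 1 lowest and replicate 5 highest in BALB/c, as H2-Eb1 did, and in NSG replicate 3 held the most. Without NSG replicate 3 the log2 fold change was 7.98 for H2-Aa and 8.50 for H2-Ab1. H2-Ea-ps, annotated as a polymorphic pseudogene, had 131, 282, 251, 409 and 501 CPM in BALB/c macro-mets, against 0.0184, 0.0523, 0, 0 and 0 CPM in NSG macro-mets. It was high in every BALB/c library and at a few counts or 0 in NSG, so no fold change is given.

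Cd74, the invariant chain that guides class II molecules, had 430.4, 820.1, 775, 929 and 1082 CPM in BALB/c macro-mets, against 14.5, 17.3, 23.2, 12.7 and 17.1 CPM in NSG macro-mets. For Cd74 the log2 fold change was 5.57 ± 0.31 (adjusted p = 6.47e-11). All 5 NSG macro-mets kept a measurable Cd74 level, between 12.7 and 23.2 CPM. Ciita, the transactivator itself, had 15.5, 32.7, 29.8, 47.9 and 46.1 CPM in BALB/c macro-mets, against 2.89, 1.71, 1.55, 2.7 and 1.47 CPM in NSG macro-mets. For Ciita the log2 fold change was 4.06 ± 0.39 (adjusted p = 3.99e-07). The groups did not overlap for any of the genes above. H2-DMa, a subunit of the peptide editor, averaged 92.0 ± 26.3 CPM in BALB/c and 10.6 ± 1.49 CPM in NSG (log2 fold change 3.12 ± 0.29, adjusted p = 1.46e-07). H2-DMb1, its partner subunit, averaged 97.2 ± 37.9 CPM in BALB/c and 0.575 ± 0.347 CPM in NSG (log2 fold change 7.36 ± 0.47, adjusted p = 2.24e-10). H2-DMb2, a further such subunit, averaged 39.3 ± 14.4 CPM in BALB/c and 0.281 ± 0.178 CPM in NSG (log2 fold change 7.09 ± 0.58, adjusted p = 9.12e-09). H2-DMa had the smallest fold change of these 3 editor genes.

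Other cells that carry class II are macrophages, B cells and dendritic cells. Summed macrophage markers overlapped between the hosts, and B cell markers had a higher median in BALB/c, as given above, with 9 of the 10 B cell genes under 1 CPM in all 10 libraries. Dendritic cell markers summed to 932 to 1272 CPM in BALB/c and 1230 to 1433 CPM in NSG, of which Fscn1 alone made 60.5%. Without Fscn1 they summed to 330 to 514 CPM in BALB/c and 508 to 590 CPM in NSG. Most of that rest was Cst3, which averaged 405 CPM in BALB/c and 526 CPM in NSG. Of the 10 dendritic cell genes 5 were under 1 CPM in all 10 libraries, and of the 6 tested 3 had a log2 fold change above 0. Mpeg1, a pore-forming protein of macrophages, averaged 14.7 ± 6.6 CPM in BALB/c and 4.33 ± 1.27 CPM in NSG (log2 fold change 1.76 ± 0.46, adjusted p = 0.0369). It was not called without any 1 of BALB/c replicates 3, 4 and 5 and NSG replicates 1, 3, 4 and 5. Marco, a macrophage scavenger receptor chosen after its values were seen, was called lower (0.0607 ± 0.12 CPM in BALB/c, 2.68 ± 1.03 CPM in NSG; adjusted p = 0.00131) and was at 0 in 3 of the 5 BALB/c libraries. The pan-leukocyte gene Ptprc, which encodes CD45, was at 0.137 to 1.03 CPM in BALB/c and 0.0369 to 1.60 CPM in NSG. Whether host cells in the sort contributed to class II RNA was not tested. In bulk RNA, fewer cells with a transcript and less of it per cell cannot be told apart.

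Among signalling genes and targets of interferon gamma, 13 of 20 tested were called higher and 0 lower, also 0 lower with DESeq2, with voom or at an unadjusted p under 0.05. DESeq2 called 15 of the 20 higher and voom 10. The median log2 fold change was 1.05, against -0.01 over all genes tested. The receptor chains, picked after their values were seen, were not called. Ifngr1, the ligand-binding chain, averaged 37.6 ± 5.94 CPM in BALB/c and 34.5 ± 2.89 CPM in NSG (log2 fold change 0.12 ± 0.13, adjusted p = 0.706). Ifngr2, the accessory chain, averaged 85.4 ± 9.12 CPM in BALB/c and 69.5 ± 3.17 CPM in NSG (log2 fold change 0.30 ± 0.12, adjusted p = 0.222). Irf1, a rapidly induced factor of the pathway, averaged 322 ± 57.9 CPM in BALB/c and 285 ± 108 CPM in NSG (log2 fold change 0.18 ± 0.19, adjusted p = 0.715). It was not called either, and its NSG libraries, from 145 to 446 CPM, enclosed all BALB/c libraries. Irf8, a related factor, averaged 45.1 ± 9.5 CPM in BALB/c and 15.2 ± 4.89 CPM in NSG (log2 fold change 1.57 ± 0.27, adjusted p = 0.000615). Batf2, a factor of the AP-1 family, averaged 14.7 ± 4.37 CPM in BALB/c and 2.64 ± 1.09 CPM in NSG (log2 fold change 2.47 ± 0.39, adjusted p = 0.000293). Apol6, an apolipoprotein L gene, averaged 21.4 ± 9.29 CPM in BALB/c and 1.19 ± 0.488 CPM in NSG (log2 fold change 4.18 ± 0.46, adjusted p = 3.74e-06). All 3 rose, though reads of Apol6 can be shared with its family.

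Of the 3 ligands of CXCR3, a receptor on activated T and NK cells, 2 were called higher. Cxcl9 had 8.18, 16.0, 16.1, 14.6 and 17.5 CPM in BALB/c macro-mets, against 0.221, 0.0174, 0, 0.0314 and 0.152 CPM in NSG macro-mets. For Cxcl9 the log2 fold change was 7.41 ± 0.89 (adjusted p = 2.47e-07). Without NSG macro-met replicate 1, its highest NSG library, that was 8.33. Every BALB/c library was above every NSG library. Cxcl11, which rose too, averaged 6.11 ± 2.23 CPM in BALB/c and 0.292 ± 0.0843 CPM in NSG (log2 fold change 4.36 ± 0.43, adjusted p = 1.59e-07). Cxcl10, which missed the threshold, averaged 16.0 ± 4.6 CPM in BALB/c and 6.68 ± 2.83 CPM in NSG (log2 fold change 1.26 ± 0.36, adjusted p = 0.0554). Cxcl10 was called in 5 of 24 alternatives. These were DESeq2, a stricter filter, the 10 macro-met libraries alone, log2(TPM + 0.1) and the fit without BALB/c macro-met replicate 1. Whether the 3 ligands differed from each other was not tested.

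All 11 guanylate-binding protein genes tested were called higher, with a median of 2.99 on the log2 scale. With voom 7 of them were called, and members of the family can share reads and are less certain one by one. Gbp2 had 117, 175, 208, 203 and 209.9 CPM in BALB/c macro-mets, against 37.4, 38.0, 32.8, 36.9 and 37.9 CPM in NSG macro-mets. For Gbp2 the log2 fold change was 2.32 ± 0.25 (adjusted p = 1.6e-06). Its NSG libraries were close together, and BALB/c replicate 1 was the lowest of its group. Gbp3, a member of the same cluster, averaged 42.1 ± 14.6 CPM in BALB/c and 3.38 ± 0.489 CPM in NSG (log2 fold change 3.63 ± 0.33, adjusted p = 1.42e-07). Gbp4, from another cluster, averaged 42.9 ± 20.1 CPM in BALB/c and 1.21 ± 0.705 CPM in NSG (log2 fold change 5.14 ± 0.55, adjusted p = 3.31e-06). Gbp5, which promotes inflammasome assembly, averaged 8.76 ± 4.64 CPM in BALB/c and 0.471 ± 0.414 CPM in NSG (log2 fold change 4.14 ± 0.55, adjusted p = 4.47e-05). Without NSG macro-met replicate 3 the log2 fold change of Gbp5 was 4.8. These 3 rose without overlap between the hosts, as did Gbp2b (log2 fold change 2.92 ± 0.36, adjusted p = 1.23e-05). Gbp9 rose as well (log2 fold change 2.61 ± 0.46, adjusted p = 0.00145).

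All 9 immunity-related GTPase genes tested were called higher, with a median log2 fold change of 4.61. DESeq2 called 9 of them higher and voom 7. Igtp, which acts at vacuoles of intracellular parasites, had 72.8, 121, 143, 146 and 152 CPM in BALB/c macro-mets, against 14.0, 12.9, 9.71, 13.4 and 13.5 CPM in NSG macro-mets. For Igtp the log2 fold change was 3.32 ± 0.27 (adjusted p = 1.94e-08). Replicate 1 was again the lowest BALB/c library, and the groups did not overlap. Irgm1, a regulator of the other GTPases, averaged 96.5 ± 24.7 CPM in BALB/c and 20.7 ± 2.59 CPM in NSG (log2 fold change 2.22 ± 0.25, adjusted p = 1.88e-06). Irgm2, another regulator, averaged 77.1 ± 27.6 CPM in BALB/c and 10.5 ± 0.911 CPM in NSG (log2 fold change 2.88 ± 0.29, adjusted p = 4.41e-07). Iigp1, an effector, averaged 20.8 ± 8.4 CPM in BALB/c and 0.619 ± 0.431 CPM in NSG (log2 fold change 5.06 ± 0.53, adjusted p = 1.59e-06). All 3 rose, and so did Ifi47 (log2 fold change 2.68 ± 0.25, adjusted p = 9.48e-08). The near-identical pair Tgtp1 (21.9 ± 6.25 CPM in BALB/c, 0.892 ± 0.468 CPM in NSG) and Tgtp2 (15.1 ± 4.01 CPM in BALB/c, 0.89 ± 0.337 CPM in NSG) cannot be read as 2 separate results.

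**Figure D3:**
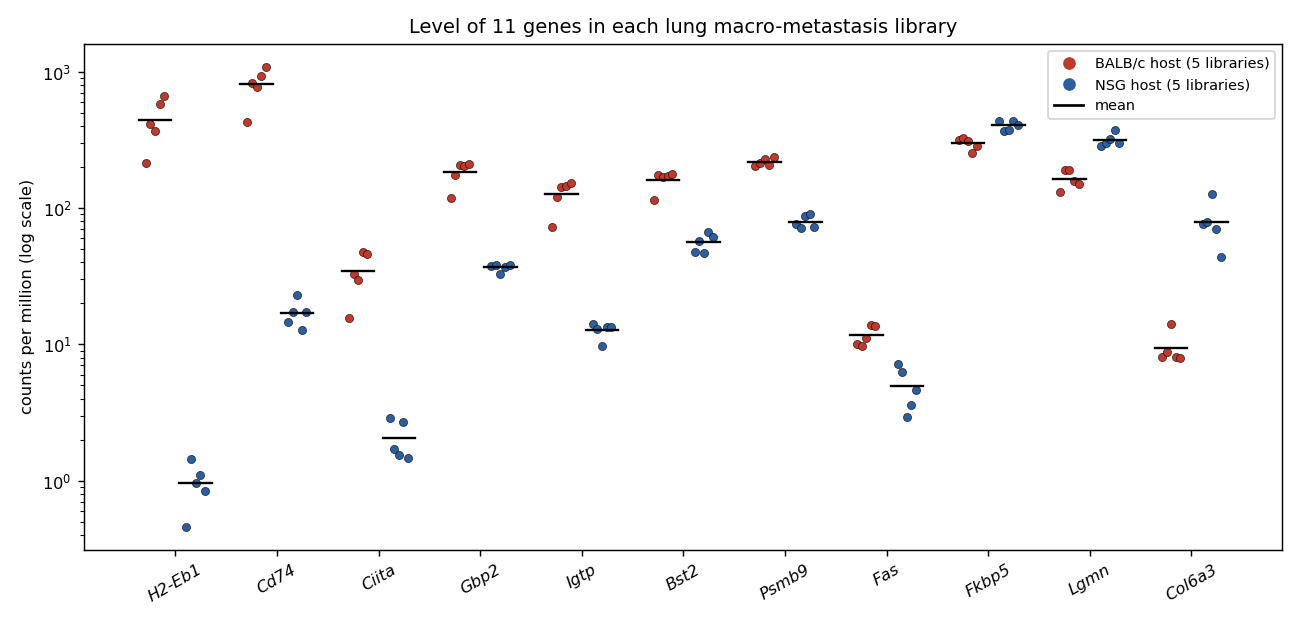
CPM (log axis) of 11 genes in each of the 10 libraries, BALB/c host left and NSG host right of each tick, with lines for means. H2-Eb1 lies at 213 to 660 CPM in BALB/c and 0.461 to 1.43 CPM in NSG, and Fkbp5, Lgmn and Col6a3 are higher in NSG.

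Of 38 type I interferon response genes, 28 were called higher and 0 lower, with a median log2 fold change of 1.27. The count of falls was also 0 with DESeq2, with voom and at an unadjusted p under 0.05. DESeq2 called 31 of the 38 higher and voom 22. Many of these genes also respond to interferon gamma, so the list does not separate the types of interferon. Bst2, the tetherin that retains budding virus, had 114, 175, 169, 170.3 and 178 CPM in BALB/c macro-mets, against 48.0, 57.6, 46.5, 67.1 and 60.8 CPM in NSG macro-mets. For Bst2 the log2 fold change was 1.53 ± 0.19 (adjusted p = 6.36e-06). BALB/c replicate 1 lay apart from the other 4 libraries of its group and still above all NSG libraries. Irf7, the factor that amplifies type I interferon, averaged 26.9 ± 4.01 CPM in BALB/c and 9.37 ± 1.66 CPM in NSG (log2 fold change 1.52 ± 0.20, adjusted p = 1.23e-05). Cmpk2, a mitochondrial nucleotide kinase, averaged 11.9 ± 2.85 CPM in BALB/c and 2.67 ± 1.1 CPM in NSG (log2 fold change 2.16 ± 0.28, adjusted p = 9.77e-06). Ifit3, which restrains viral RNA translation, averaged 5.67 ± 1.03 CPM in BALB/c and 1.26 ± 0.336 CPM in NSG (log2 fold change 2.16 ± 0.28, adjusted p = 1.23e-05). All 3 rose, as did Xaf1, an apoptosis-associated gene (log2 fold change 1.29 ± 0.18, adjusted p = 2.8e-05), and Rtp4 (log2 fold change 1.66 ± 0.22, adjusted p = 1.73e-05). Ifnar1, a chain of the type I receptor, averaged 111 ± 4.5 CPM in BALB/c and 105 ± 5.11 CPM in NSG (log2 fold change 0.07 ± 0.09, adjusted p = 0.757). It was not called.

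Class I antigen presentation gave smaller changes than class II. Of 16 genes of class I and peptide loading, 12 were called higher and 0 lower (median log2 fold change 0.66; 0 lower also with DESeq2, with voom and at an unadjusted p under 0.05). Psmb9, a catalytic subunit of the immunoproteasome, had 203, 212, 229, 206 and 236 CPM in BALB/c macro-mets, against 76.9, 70.8, 87.4, 90.9 and 72.0 CPM in NSG macro-mets. For Psmb9 the log2 fold change was 1.45 ± 0.17 (adjusted p = 2.48e-06). The BALB/c values lay within 203 to 236 CPM, a narrower range than for class II genes. Psmb8, another catalytic subunit, averaged 658 ± 48.3 CPM in BALB/c and 351 ± 33.7 CPM in NSG (log2 fold change 0.91 ± 0.13, adjusted p = 4.86e-05). Psmb10, the third, averaged 341 ± 34.7 CPM in BALB/c and 141 ± 23.3 CPM in NSG (log2 fold change 1.28 ± 0.16, adjusted p = 5.25e-06). Tap1, a subunit of the peptide transporter, averaged 279 ± 21.3 CPM in BALB/c and 119.9 ± 22.3 CPM in NSG (log2 fold change 1.22 ± 0.20, adjusted p = 0.000316). All 3 rose, as did the proteasome activator subunit Psme1 (log2 fold change 0.67 ± 0.09, adjusted p = 1.73e-05) and the peptide editor Tapbpl (log2 fold change 1.22 ± 0.17, adjusted p = 1.62e-05). Calr, a chaperone, averaged 953 ± 56.3 CPM in BALB/c and 765 ± 89.9 CPM in NSG (log2 fold change 0.32 ± 0.10, adjusted p = 0.105). Tapbp, which encodes tapasin, averaged 884 ± 139.7 CPM in BALB/c and 774 ± 38.3 CPM in NSG (log2 fold change 0.19 ± 0.13, adjusted p = 0.524). Neither was called.

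Among genes picked after their values were seen, the light chain rose. B2m, the light chain, averaged 2359 ± 105 CPM in BALB/c and 1429.7 ± 114 CPM in NSG (log2 fold change 0.72 ± 0.12, adjusted p = 0.000413). Nlrc5, the class I transactivator, averaged 82.2 ± 15.2 CPM in BALB/c and 41.7 ± 4.55 CPM in NSG (log2 fold change 0.98 ± 0.18, adjusted p = 0.00145). H2-K1, a heavy chain, averaged 2966 ± 261 CPM in BALB/c and 2010.5 ± 135 CPM in NSG (log2 fold change 0.56 ± 0.12, adjusted p = 0.00597). Nlrc5 and H2-K1 rose as well. H2-D1, another heavy chain, averaged 4569 ± 507 CPM in BALB/c and 3339 ± 198 CPM in NSG (log2 fold change 0.45 ± 0.13, adjusted p = 0.0498). That call was lost without any 1 of 9 libraries, all but BALB/c macro-met replicate 4. Of 14 non-classical class I genes, 9 were called higher and 0 lower (median 0.67; 0 lower also with DESeq2, with voom and at an unadjusted p under 0.05). H2-T23, which encodes the Qa-1 ligand of the NK receptor CD94/NKG2A, averaged 397 ± 34.5 CPM in BALB/c and 139 ± 16.0 CPM in NSG (log2 fold change 1.52 ± 0.20, adjusted p = 1.02e-05). H2-T24, a further T-region gene, averaged 8.76 ± 1.89 CPM in BALB/c and 1.82 ± 0.655 CPM in NSG (log2 fold change 2.28 ± 0.27, adjusted p = 2.49e-06). Both rose, and so did H2-T22 (log2 fold change 0.96 ± 0.13, adjusted p = 2.3e-05), H2-Q7 (log2 fold change 0.88 ± 0.16, adjusted p = 0.000667) and H2-Q6 (log2 fold change 0.67 ± 0.13, adjusted p = 0.00249). H2 genes are near-copies of each other and can share reads.

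The title of the series names glucocorticoids and Fas. Fas, the death receptor, had 10.1, 9.71, 11.1, 13.8 and 13.6 CPM in BALB/c macro-mets, against 7.13, 6.3, 2.95, 3.61 and 4.61 CPM in NSG macro-mets. For Fas the log2 fold change was 1.24 ± 0.22 (adjusted p = 0.000931). The lowest BALB/c library, at 9.71 CPM, was above the highest NSG library, at 7.13 CPM. In the death receptor list of 14 genes, 3 were called higher and 0 lower (median log2 fold change 0.18). For this and the next lists, the shares over all genes tested were 1.88% higher and 0.76% lower with edgeR. At an unadjusted p under 0.05, 1305 of all 17774 genes tested were higher and 1452 lower. DESeq2 called 4 higher and voom 1, and 5 were higher at an unadjusted p under 0.05, with 0 lower in each. Tnfsf10, the death ligand TRAIL, averaged 8.69 ± 2.74 CPM in BALB/c and 2.77 ± 0.838 CPM in NSG (log2 fold change 1.65 ± 0.35, adjusted p = 0.00655). Faim2, an inhibitor of Fas-induced death, averaged 2.41 ± 0.824 CPM in BALB/c and 0.708 ± 0.245 CPM in NSG (log2 fold change 1.76 ± 0.36, adjusted p = 0.00377). Both rose beside Fas, but with voom they were not called, at adjusted p = 0.0844 for Tnfsf10 and 0.0794 for Faim2. Tnfrsf1a, a TNF receptor, averaged 153 ± 11.4 CPM in BALB/c and 166 ± 6.14 CPM in NSG (log2 fold change -0.12 ± 0.10, adjusted p = 0.599). It was not called. Of 18 BCL2 family genes 0 were called with edgeR, 3 had an unadjusted p under 0.05, 1 was called lower with DESeq2 and 0 were called with voom. Among checkpoint and NK ligands 1 of 17 was called, Cd274, which encodes PD-L1. Cd274 had 8.08, 14.3, 18.5, 19.1 and 15.4 CPM in BALB/c macro-mets, against 4.9, 4.62, 2.44, 3.92 and 4.23 CPM in NSG macro-mets. For Cd274 the log2 fold change was 1.91 ± 0.31 (adjusted p = 0.000395). The groups did not overlap. Cd47, a signal against phagocytosis that was not called, averaged 306 ± 17.9 CPM in BALB/c and 351 ± 29.6 CPM in NSG (log2 fold change -0.20 ± 0.09, adjusted p = 0.285).

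Of 27 glucocorticoid-induced genes, 1 was called higher and 2 lower (median log2 fold change -0.08), and 7 of the 27 had a value above 0. Over all genes tested 1.88% were called higher and 0.76% lower, and the median was -0.01. DESeq2 called 1 higher and 4 lower, and voom 1 higher and 1 lower. At an unadjusted p under 0.05 there were 1 higher and 7 lower, beside 1305 higher and 1452 lower of all 17774 genes tested. Fkbp5, whose product binds the HSP90 complex of the receptor, had 315, 325, 311, 253 and 286 CPM in BALB/c macro-mets, against 432, 369.7, 376, 433 and 403 CPM in NSG macro-mets. For Fkbp5 the log2 fold change was -0.43 ± 0.12 (adjusted p = 0.0459). The groups did not overlap, but the call was lost in turn without each of the 10 libraries. Tsc22d3, known as GILZ for its leucine zipper, had 272, 396, 209, 181 and 217 CPM in BALB/c macro-mets, against 359, 295, 619, 414 and 302 CPM in NSG macro-mets. Tsc22d3 was not called, at a log2 fold change of -0.64 ± 0.21 (adjusted p = 0.0968). The highest BALB/c library, replicate 2, was above 3 of the 5 NSG libraries, and the gene was called without that library. Per1, a clock gene that glucocorticoids induce, had 118, 164, 126, 102 and 91.4 CPM in BALB/c macro-mets, against 137, 112, 351, 213 and 187 CPM in NSG macro-mets. Per1 was not called, at a log2 fold change of -0.74 ± 0.22 (adjusted p = 0.0713). It was called without BALB/c macro-met replicate 2 or NSG macro-met replicates 1 or 2, and NSG replicate 3, the library that stood apart, held its highest value. Nfkbia, the inhibitor of NF-kB and the other fall, averaged 218 ± 35.8 CPM in BALB/c and 371 ± 134 CPM in NSG (log2 fold change -0.77 ± 0.21, adjusted p = 0.0467). It lost its call without any 1 of 9 libraries, all but NSG macro-met replicate 5. Lcn2, an iron-sequestering acute phase protein and the 1 rise, averaged 1164 ± 254 CPM in BALB/c and 540.2 ± 111 CPM in NSG (log2 fold change 1.11 ± 0.24, adjusted p = 0.00782). Nr3c1, the receptor gene, averaged 17.1 ± 5.44 CPM in BALB/c and 14.9 ± 2.68 CPM in NSG (log2 fold change 0.20 ± 0.21, adjusted p = 0.716). Dusp1, a phosphatase that glucocorticoids induce, averaged 915 ± 313 CPM in BALB/c and 1220.0 ± 417 CPM in NSG (log2 fold change -0.41 ± 0.29, adjusted p = 0.532). Nr3c1 and Dusp1 were not called.

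Outside the interferon and MHC lists, acute phase and coagulation genes had the highest share called higher of the lists examined. It was 7 of 24 (29.2%), against 1.88% over all genes tested, and 0 were called lower (median log2 fold change 0.81). At an unadjusted p under 0.05 there were 10 higher and 1 lower, beside 1305 higher and 1452 lower of all 17774 genes tested. DESeq2 and voom each called 8 higher and 1 lower. Without the day 23 and day 20 libraries 4 were called higher. C1s1, a complement protease, averaged 47.2 ± 21.1 CPM in BALB/c and 11.1 ± 3.17 CPM in NSG (log2 fold change 2.09 ± 0.37, adjusted p = 0.00141). C1ra, its partner protease, averaged 60.9 ± 10.5 CPM in BALB/c and 30.1 ± 3.32 CPM in NSG (log2 fold change 1.02 ± 0.23, adjusted p = 0.0107). C3, the central complement protein, averaged 334 ± 65.2 CPM in BALB/c and 117 ± 21.3 CPM in NSG (log2 fold change 1.52 ± 0.30, adjusted p = 0.00419). All 3 complement genes rose. F3, tissue factor, averaged 9.59 ± 1.65 CPM in BALB/c and 4.74 ± 0.532 CPM in NSG (log2 fold change 1.02 ± 0.22, adjusted p = 0.00784). Saa2, a serum amyloid, averaged 53.4 ± 43.1 CPM in BALB/c and 9.75 ± 5.56 CPM in NSG (log2 fold change 2.46 ± 0.49, adjusted p = 0.0055). Saa2 rose with overlap between the hosts. Nos2, the inducible nitric oxide synthase, averaged 89.1 ± 49.0 CPM in BALB/c and 17.0 ± 7.05 CPM in NSG (log2 fold change 2.39 ± 0.46, adjusted p = 0.00379). Serpina3g, 1 of 2 called among 14 serpins, of which voom called 0, averaged 3.94 ± 1.72 CPM in BALB/c and 0.234 ± 0.238 CPM in NSG (log2 fold change 4.09 ± 0.64, adjusted p = 0.000158). Without NSG macro-met replicate 2 the log2 fold change of Serpina3g was 4.88. Its gene cluster holds copies that can share reads.

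Among 18 lymphocyte and monocyte attracting chemokines 3 were called higher, Cxcl9, Cxcl11 and Cxcl16, and 1 lower, Cxcl14. The shares over all genes tested were 1.88% higher and 0.76% lower. Cxcl16, a ligand of CXCR6, averaged 18.0 ± 3.02 CPM in BALB/c and 10.8 ± 1.36 CPM in NSG (log2 fold change 0.74 ± 0.17, adjusted p = 0.0122). Cxcl14 had 0.571, 0.755, 1.63, 1.62 and 1.02 CPM in BALB/c macro-mets, against 18.3, 6.68, 4.71, 5.93 and 0.988 CPM in NSG macro-mets. For Cxcl14 the log2 fold change was -2.71 ± 0.63 (adjusted p = 0.0188). It was highest in NSG macro-met replicate 1, without which the value was -2.01, and its call was lost without BALB/c replicates 1, 2 or 5 or NSG replicate 1. Cxcl5, 1 called among 12 neutrophil chemokines and colony-stimulating factors, of which voom called 0, averaged 51.4 ± 27.6 CPM in BALB/c and 24.5 ± 7.8 CPM in NSG (log2 fold change 1.07 ± 0.28, adjusted p = 0.034). It was not called without any 1 of BALB/c replicates 4 and 5 and NSG replicates 1, 2, 3 and 5. Vegfa, an angiogenic growth factor, averaged 175 ± 33.0 CPM in BALB/c and 108 ± 25.8 CPM in NSG (log2 fold change 0.70 ± 0.16, adjusted p = 0.0107). Its call was lost without BALB/c macro-met replicate 4. Il4ra, the receptor for IL-4 and IL-13, had 41.2, 72.3, 82.8, 76.8 and 87.2 CPM in BALB/c macro-mets, against 109, 112, 118, 152 and 152 CPM in NSG macro-mets. For Il4ra the log2 fold change was -0.84 ± 0.17 (adjusted p = 0.00449). Every BALB/c library was below every NSG library.

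Among epithelial genes, 1 keratin and 3 junction genes rose. Krt23, the 1 of 13 keratins called, averaged 8.86 ± 2.06 CPM in BALB/c and 2.12 ± 0.619 CPM in NSG (log2 fold change 2.06 ± 0.27, adjusted p = 1.23e-05). Krt8, a luminal keratin, averaged 2727 ± 409 CPM in BALB/c and 2846 ± 149.5 CPM in NSG (log2 fold change -0.06 ± 0.14, adjusted p = 0.881). Krt18, its partner keratin, averaged 1993 ± 438 CPM in BALB/c and 1924 ± 171 CPM in NSG (log2 fold change 0.05 ± 0.12, adjusted p = 0.887). Krt8 and Krt18 were not called. Of 30 junction and polarity genes 3 were called higher (10%, against 1.88% over all genes tested) and 0 lower (median log2 fold change 0.22). DESeq2 called 5 higher and voom 2, with 0 lower in both. At an unadjusted p under 0.05 there were 11 higher and 1 lower, beside 1305 higher and 1452 lower of all 17774 genes tested. Cldn4, a tight junction claudin, had 867, 823, 356, 494 and 506 CPM in BALB/c macro-mets, against 327, 284, 284, 294 and 220.2 CPM in NSG macro-mets. For Cldn4 the log2 fold change was 1.11 ± 0.23 (adjusted p = 0.0055). BALB/c replicates 1 and 2 were its highest libraries, whereas replicate 1 was the lowest for the class II genes above. Crb3, a polarity gene, averaged 2.71 ± 1.01 CPM in BALB/c and 0.969 ± 0.132 CPM in NSG (log2 fold change 1.48 ± 0.28, adjusted p = 0.00143). Rab25, a GTPase of apical recycling, averaged 9.68 ± 4.35 CPM in BALB/c and 3.47 ± 0.603 CPM in NSG (log2 fold change 1.49 ± 0.28, adjusted p = 0.00194). Both rose. Cdh1, E-cadherin, averaged 289 ± 62.0 CPM in BALB/c and 252 ± 40.1 CPM in NSG (log2 fold change 0.19 ± 0.15, adjusted p = 0.594). It was not called. Of 23 mesenchymal genes 0 were called with edgeR (median log2 fold change -0.55). At an unadjusted p under 0.05 there were 7, all lower, and DESeq2 and voom called 3 lower each.

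Of 21 collagens 2 were called with edgeR, both lower (9.52%, against 0.76% lower over all genes tested; median log2 fold change -0.42). At an unadjusted p under 0.05 there were 12 lower and 0 higher, beside 1452 lower and 1305 higher of all 17774 genes tested. DESeq2 called 5 lower and voom 2. Col6a3, a chain of collagen VI, had 8.02, 8.8, 14.2, 8.13 and 7.92 CPM in BALB/c macro-mets, against 76.6, 79.0, 126, 69.8 and 43.5 CPM in NSG macro-mets. For Col6a3 the log2 fold change was -3.07 ± 0.46 (adjusted p = 0.000261). The lowest NSG library, at 43.5 CPM, was far above the highest BALB/c library, at 14.2 CPM. Fibroblast and pericyte markers summed to 401 to 619 CPM in BALB/c and 512 to 632 CPM in NSG, which overlapped. Of the 14, 0 were called with edgeR, 4 were lower at an unadjusted p under 0.05, and DESeq2 and voom called 1 lower each (median log2 fold change -0.66). Col3a1, a marker that is also in the collagen list, averaged 9.70 CPM in BALB/c and 29.5 CPM in NSG. Col1a2, likewise in both lists, averaged 9.46 CPM in BALB/c and 23.9 CPM in NSG. Dpt, a dermatopontin gene of fibroblasts, averaged 0.702 CPM in BALB/c and 2.47 CPM in NSG. Not all 14 markers went that way, and 5 had a log2 fold change above 0. Dcn averaged 111 CPM in BALB/c and 88.6 CPM in NSG, and Pdgfrb 60.1 CPM in BALB/c and 41.5 CPM in NSG. The part of fibroblasts in the collagen and mesenchymal values was not tested. Col5a3, a chain of collagen V, averaged 2.48 ± 0.974 CPM in BALB/c and 6.02 ± 1.12 CPM in NSG (log2 fold change -1.29 ± 0.30, adjusted p = 0.0115). Its call was lost without BALB/c replicates 1 or 2. Mmp13, a collagenase, averaged 3.71 ± 2.09 CPM in BALB/c and 1.17 ± 0.305 CPM in NSG (log2 fold change 1.67 ± 0.38, adjusted p = 0.0114). This rise was not called without BALB/c replicate 4. Mmp9, a gelatinase, averaged 120.1 ± 26.5 CPM in BALB/c and 58.6 ± 8.93 CPM in NSG (log2 fold change 1.04 ± 0.24, adjusted p = 0.0131). Timp2, an inhibitor of such enzymes, averaged 769.9 ± 111 CPM in BALB/c and 1224 ± 90.4 CPM in NSG (log2 fold change -0.67 ± 0.12, adjusted p = 0.000671). Mmp9 rose and Timp2 fell. Of 24 integrins and adhesion molecules 2 were called higher and 1 lower, beside 1.88% higher and 0.76% lower over all genes tested. Itgb3, an integrin chain, averaged 34.8 ± 9.91 CPM in BALB/c and 17.9 ± 5.43 CPM in NSG (log2 fold change 0.96 ± 0.22, adjusted p = 0.0114). Itgb3 was not called without BALB/c replicate 4. Alcam, an adhesion molecule, averaged 35.8 ± 9.3 CPM in BALB/c and 17.9 ± 5.99 CPM in NSG (log2 fold change 1.0 ± 0.28, adjusted p = 0.0497). This call was lost without any 1 of BALB/c replicates 1, 4 and 5 and NSG replicates 1 to 4. Cd44, the hyaluronan receptor, averaged 414 ± 25.5 CPM in BALB/c and 557 ± 21.3 CPM in NSG (log2 fold change -0.43 ± 0.11, adjusted p = 0.0222). The fall of Cd44 was lost without any 1 of BALB/c replicates 1, 2, 4 and 5 and NSG replicates 1, 3, 4 and 5.

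The largest falls among well-expressed genes without overlap were single genes of varied function. Nptx1, a secreted pentraxin, had 44.8, 56.2, 72.7, 28.9 and 42.5 CPM in BALB/c macro-mets, against 184, 167, 179.6, 162 and 161 CPM in NSG macro-mets. For Nptx1 the log2 fold change was -1.80 ± 0.33 (adjusted p = 0.00184). The highest BALB/c library, at 72.7 CPM, lay below the lowest NSG library, at 161 CPM. Nr1d1, the clock repressor REV-ERB alpha, had 9.54, 21.9, 16.9, 11.5 and 14.7 CPM in BALB/c macro-mets, against 31.6, 32.2, 133, 33.7 and 34.4 CPM in NSG macro-mets. For Nr1d1 the log2 fold change was -1.83 ± 0.33 (adjusted p = 0.00162). NSG replicate 3 was far above the others there, and without it the log2 fold change was -1.12 (adjusted p = 0.00608), yet every NSG library was above every BALB/c library. Tef, a clock output factor, averaged 51.3 ± 10.0 CPM in BALB/c and 93.2 ± 29.9 CPM in NSG (log2 fold change -0.86 ± 0.18, adjusted p = 0.00384). With Nr1d1 it made 2 called among 18 clock genes (11.1%, against 2.64% over all genes tested). Bdkrb2, the bradykinin B2 receptor, averaged 10.7 ± 2.35 CPM in BALB/c and 35.2 ± 19.3 CPM in NSG (log2 fold change -1.72 ± 0.34, adjusted p = 0.00333). Its highest NSG library was replicate 3 as well.

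Slc25a48, a mitochondrial carrier, had 5.67, 4.7, 5.14, 6.36 and 5.6 CPM in BALB/c macro-mets, against 14.2, 14.3, 15.9, 14.6 and 12.3 CPM in NSG macro-mets. For Slc25a48 the log2 fold change was -1.37 ± 0.18 (adjusted p = 1.02e-05). Lgmn, the lysosomal protease legumain, had 131, 191, 190.0, 157 and 149.6 CPM in BALB/c macro-mets, against 286, 299, 321, 376 and 297 CPM in NSG macro-mets. For Lgmn the log2 fold change was -0.95 ± 0.13 (adjusted p = 1.37e-05). Neither gene overlapped between the hosts. Dock8, an exchange factor for CDC42, averaged 13.9 ± 3.59 CPM in BALB/c and 34.7 ± 3.02 CPM in NSG (log2 fold change -1.32 ± 0.26, adjusted p = 0.00334). Sorcs2, a sortilin-family receptor, averaged 20.1 ± 4.57 CPM in BALB/c and 44.7 ± 5.02 CPM in NSG (log2 fold change -1.15 ± 0.18, adjusted p = 0.000212). Acsbg1, an acyl-CoA synthetase, averaged 26.8 ± 8.62 CPM in BALB/c and 60.7 ± 8.83 CPM in NSG (log2 fold change -1.18 ± 0.19, adjusted p = 0.000293). All 3 fell. Plscr4, a phospholipid scramblase, averaged 8.53 ± 1.93 CPM in BALB/c and 19.3 ± 1.76 CPM in NSG (log2 fold change -1.18 ± 0.22, adjusted p = 0.00126). Sh2d5 (log2 fold change -1.28 ± 0.26, adjusted p = 0.00428), Btbd11 (log2 fold change -1.16 ± 0.25, adjusted p = 0.00602) and Cgref1 (log2 fold change -1.16 ± 0.24, adjusted p = 0.0055) also fell.

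Genes of the marker lists gave few calls. Msln, mesothelin, a surface protein of mesothelium that some carcinomas also make, averaged 68.6 ± 18.2 CPM in BALB/c and 152 ± 13.7 CPM in NSG (log2 fold change -1.15 ± 0.24, adjusted p = 0.00597). Foxj1, the master factor of motile cilia and a marker of ciliated airway cells, averaged 19.0 ± 5.82 CPM in BALB/c and 2.67 ± 0.716 CPM in NSG (log2 fold change 2.83 ± 0.33, adjusted p = 3.45e-06). Msln fell and Foxj1 rose. The other 14 lung epithelium markers tested gave no call with edgeR, DESeq2 or voom and no unadjusted p under 0.05, and the part of ciliated cells was not tested.

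Metabolic and growth lists differed in their share of calls, beside a background of 2.64% over all genes tested with edgeR. An unadjusted p under 0.05 was found for 2757 of the 17774. Counts were 0 with edgeR, DESeq2 and voom alike among 36 nuclear oxidative phosphorylation genes, 40 ribosomal protein genes, 24 cholesterol synthesis genes, 38 DNA replication genes, 31 mitosis genes and 26 immediate early genes. At an unadjusted p under 0.05 the oxidative phosphorylation list had 1 gene, the ribosomal and cholesterol lists 0, the replication list 4, the mitosis list 3 and the immediate early list 3. Their medians lay between -0.32 (immediate early genes) and 0.07 (mitosis and ribosomal protein genes). Hk2, a hexokinase and the 1 of 19 glycolysis genes called, 5.26% of that list, averaged 241 ± 38.1 CPM in BALB/c and 156 ± 8.49 CPM in NSG (log2 fold change 0.62 ± 0.15, adjusted p = 0.0171). Its call was lost without BALB/c replicates 4 or 5 or NSG replicate 5. Of 25 integrated stress response genes 4 were called higher with edgeR (16%, against 1.88% higher over all genes tested). DESeq2 called 5 higher and voom 3. At an unadjusted p under 0.05, 9 were higher, beside 1305 of all 17774 genes tested. Slc7a5, an amino acid transporter with the smallest adjusted p of the 4, averaged 669 ± 81.3 CPM in BALB/c and 440.4 ± 60.4 CPM in NSG (log2 fold change 0.60 ± 0.13, adjusted p = 0.00543). Xbp1, a factor of the unfolded protein response, averaged 294 ± 87.4 CPM in BALB/c and 177 ± 18.7 CPM in NSG (log2 fold change 0.73 ± 0.17, adjusted p = 0.015). Xbp1 lost its call without BALB/c replicates 4 or 5. The transporter subunit Slc3a2 (log2 fold change 0.44 ± 0.11, adjusted p = 0.0258) and the cystine transporter Slc7a11 (log2 fold change 1.24 ± 0.34, adjusted p = 0.0458) rose as well. Slc3a2 was not called without any 1 of BALB/c replicates 1, 2, 4 and 5 and NSG replicates 2 and 5, and Slc7a11 without any 1 of BALB/c replicates 1, 4 and 5 and NSG replicates 1 to 4. Of 16 retinoid genes 2 were called higher (12.5%; 4 with DESeq2, 3 with voom and 5 at an unadjusted p under 0.05). Stra6, a retinol uptake receptor, averaged 39.6 ± 19.0 CPM in BALB/c and 16.8 ± 4.76 CPM in NSG (log2 fold change 1.24 ± 0.33, adjusted p = 0.0383). Stra6 was not called without any 1 of BALB/c replicates 1 and 4 and NSG replicates 2 to 5. Of 19 replication-dependent histones 3 were called higher (15.8%), and all 3 were highest in BALB/c replicate 1. Hist1h2bg had 42.1, 10.3, 3.99, 4.6 and 2.29 CPM in BALB/c macro-mets, against 1.88, 1.95, 2.43, 2.16 and 1.27 CPM in NSG macro-mets. For Hist1h2bg the log2 fold change was 2.70 ± 0.49 (adjusted p = 0.00216). Without BALB/c replicate 1 it was 1.46 (adjusted p = 0.023). Hist1h2ac, like the others a gene with near-copies, lost its call without that library, and Hist1h4i without that library or NSG replicates 2, 3 or 5. With voom 0 histones were called.

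**Figure D4:**
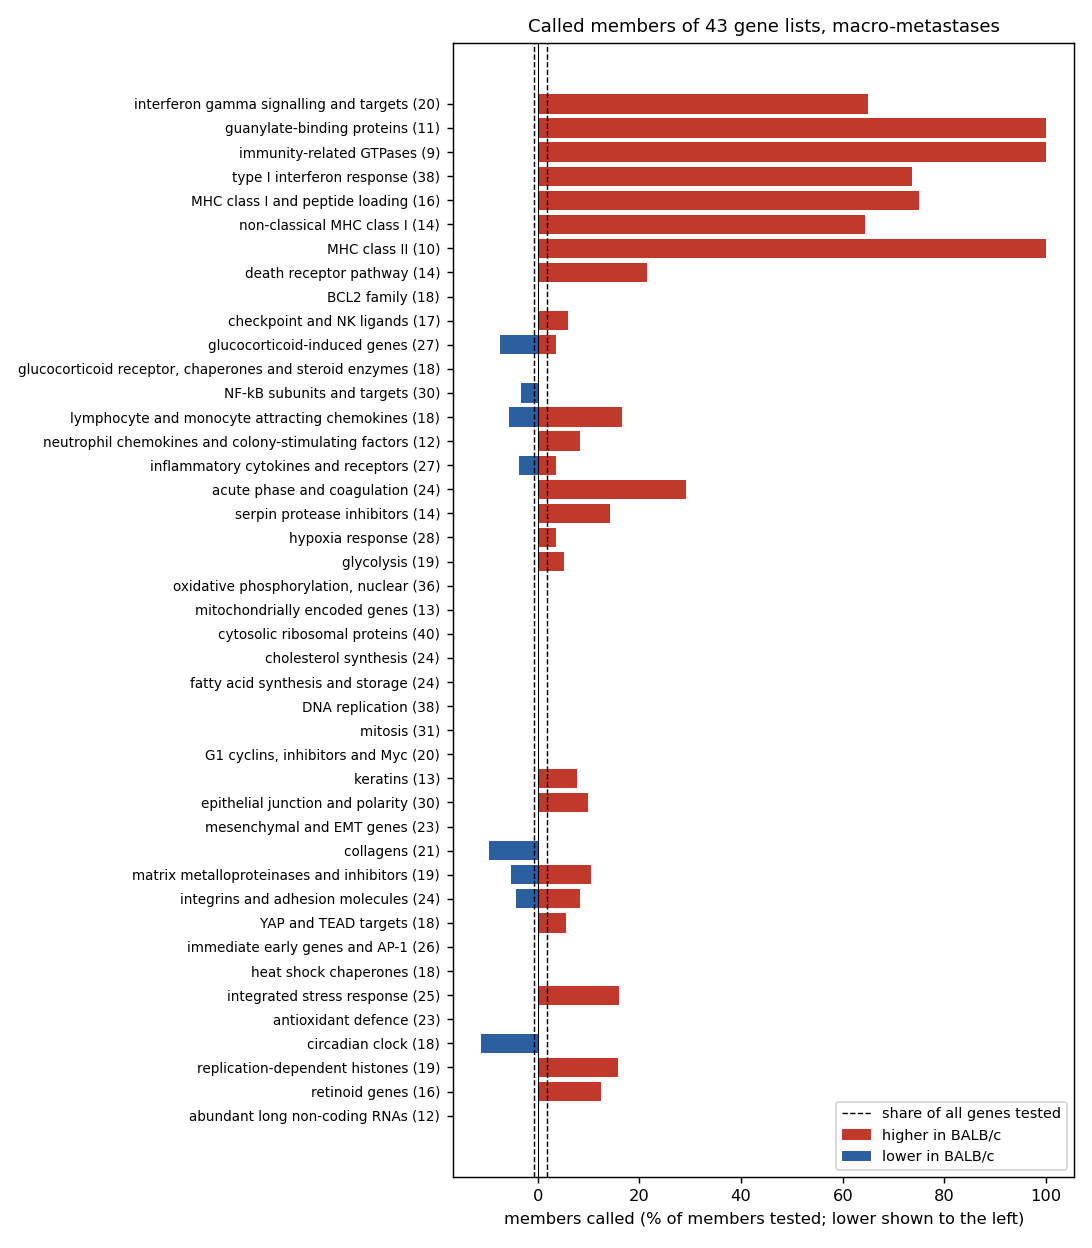
Share of tested members called higher (right, red) and lower (left, blue) in BALB/c macro-mets for 43 gene lists, with the number tested in parentheses and dashed lines at the share of all genes tested, 1.88% higher and 0.76% lower. The 7 interferon and MHC lists at the top reach 64.3% to 100%, and no other list passes 29.2%.

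The host difference in macro-mets was then set against those of DTC and tumours in the same fit. In DTC 6899 genes (38.8%) and in tumours 4188 genes (23.6%) were called between the hosts, more than the 470 of macro-mets. Of the 335 genes that rose in macro-mets, 219 also rose in DTC (65.4% of the 335 and 7.19% of the DTC rises) and 244 in tumours (72.8% and 12.5%), and 183 rose in all 3. Over all genes tested, 17.1% were called higher in DTC and 11% in tumours. Of the 135 that fell, 57 fell in DTC (42.2% of the 135 and 1.48% of the DTC falls), 86 in tumours (63.7% and 3.85%) and 42 in all 3, where 21.7% of all genes were called lower in DTC and 12.6% in tumours. Opposite calls were made as well: 17 genes higher in macro-mets were lower in DTC and 6 lower in tumours, while 6 lower in macro-mets were higher in DTC and 1 higher in tumours. In neither of the other host comparisons were 68 of the 470 called. The test of the difference called 5002 genes between macro-mets and DTC (28.1%) and 929 between macro-mets and tumours (5.23%). The host difference was higher in macro-mets for 2942 and lower for 2060 against DTC. Against tumours it was higher for 627 and lower for 302. Of the 470, 156 were called in the test against DTC and 67 in that against tumours. Lung epithelium markers moved with the DTC comparison, in which 13 of 15 were called higher in BALB/c hosts, and their part in it was not tested. In the tumour comparison day (21 to 22 in BALB/c, 10 in NSG) cannot be told apart from host.

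For 8 of 16 class I and peptide loading genes the host difference was called lower in macro-mets than in DTC, and for 3 higher, against shares of 11.6% lower and 16.6% higher over all genes tested. Tap1 was 1.22 ± 0.20 in macro-mets, 2.48 ± 0.20 in DTC and 2.47 ± 0.20 in tumours on the log2 scale (difference -1.26, adjusted p = 0.00131 from DTC and -1.25, adjusted p = 0.00765 from tumours). Psmb8 was 0.91 ± 0.13 in macro-mets and 1.90 ± 0.13 in DTC (difference -1.0, adjusted p = 0.000289). H2-Q7 was 0.88 ± 0.16 in macro-mets, 1.95 ± 0.16 in DTC and 2.05 ± 0.16 in tumours (difference -1.07, adjusted p = 0.000615 and -1.16, adjusted p = 0.00158). For class II, 0 of 10 differed from DTC with edgeR (1 had an unadjusted p under 0.05, 1 was called with DESeq2 and 0 with voom). Against tumours the host difference of 3 of 10 was called lower in macro-mets (background 1.7%), as with DESeq2. There voom called 0, and 5 had an unadjusted p under 0.05. Cd74 differed, with 5.57 ± 0.31 in macro-mets and 7.32 ± 0.31 in tumours (difference -1.75, adjusted p = 0.0187). H2-DMa also differed from tumours (4.62 ± 0.29 there, difference -1.50, adjusted p = 0.03), but not without BALB/c replicates 1 or 3 or NSG replicate 2. Fas was 1.24 ± 0.22 in macro-mets, 0.90 ± 0.22 in DTC and 1.39 ± 0.22 in tumours, and neither difference was called (0.35, adjusted p = 0.451 and -0.14, adjusted p = 0.847). Nos2 was 2.39 ± 0.46 in macro-mets and 5.82 ± 0.53 in tumours (difference -3.42, adjusted p = 0.00437).

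For C1galt1, Il4ra, Mmp9, Vegfa and Cldn4 the host difference had opposite signs in macro-mets and another group. For Nr1d1 and Slc25a48 it was close to 0 in DTC. C1galt1, the enzyme that builds core 1 O-glycans, was 1.19 ± 0.25 in macro-mets and -1.68 ± 0.25 in DTC (difference 2.87, adjusted p = 1.22e-05). C1galt1 had 24.2, 18.5, 28.2, 48.0 and 38.1 CPM in BALB/c macro-mets, against 13.5, 14.0, 13.0, 10.8 and 17.5 CPM in NSG macro-mets. For C1galt1 the log2 fold change was 1.19 ± 0.25 (adjusted p = 0.00597). Il4ra was -0.84 ± 0.17 in macro-mets and 0.64 ± 0.18 in DTC (difference -1.47, adjusted p = 0.000119). Mmp9 was 1.04 ± 0.24 in macro-mets and -0.79 ± 0.24 in tumours (difference 1.83, adjusted p = 0.00161). Vegfa was 0.70 ± 0.16 in macro-mets and -0.56 ± 0.16 in tumours (difference 1.26, adjusted p = 0.00105). Nr1d1 and Slc25a48, both lower in BALB/c macro-mets, were at -0.19 ± 0.33 for Nr1d1 and 0.06 ± 0.18 for Slc25a48 in DTC (difference -1.64, adjusted p = 0.00994 for Nr1d1 and -1.43, adjusted p = 0.000174 for Slc25a48). Without NSG macro-met replicate 3 the difference for Nr1d1 was -0.92 (adjusted p = 0.0331). Cldn4 was 1.11 ± 0.23 in macro-mets and -0.45 ± 0.23 in tumours (difference 1.56, adjusted p = 0.00507). Growth genes differed between macro-mets and tumours: 32 of 38 replication and 22 of 31 mitosis genes were called lower in BALB/c tumours than in NSG tumours, beside 12.6% of all genes tested. Of these lists, 25 replication and 20 mitosis genes were called higher in the test of the difference (background 3.53%). Immediate early genes gave 22 of 26 lower in BALB/c tumours, with 9 called higher in that test.

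**Figure D5:**
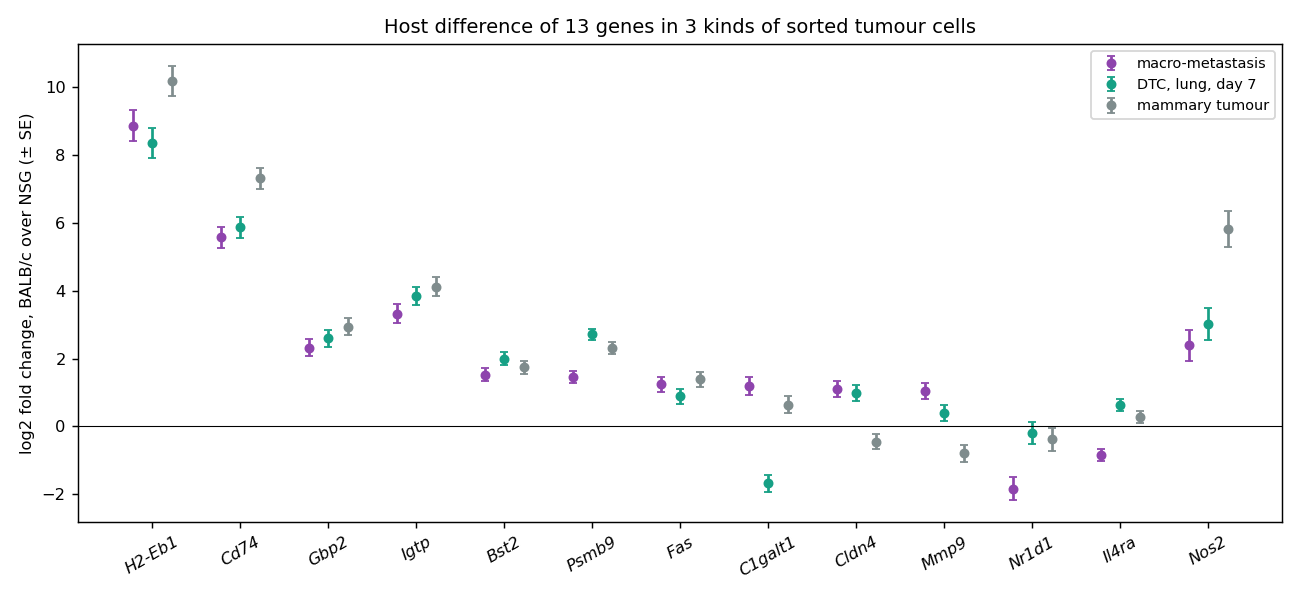
Log2 fold change of BALB/c over NSG ± SE for 13 genes in macro-mets (purple), DTC (green) and tumours (grey), 5 libraries per group and host. C1galt1, Il4ra, Mmp9 and Cldn4 lie on opposite sides of 0 in macro-mets and another group, and H2-Eb1 lies between 8.36 and 10.18 in all 3 groups.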

How the data were processed

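RNA of sorted 4T1-tdTomato cells was sequenced in 30 libraries. Reads were trimmed with Trimmomatic 0.36 and aligned with STAR 2.5.2b to GRCm38 (mm10), per the submitters' processing notes. The authors deposited a table of whole-number counts per gene and a table of TPM. The counting tool and its strand setting are not given in the sources used here, so overlapping and antisense genes cannot be separated. Counts were tested with edgeR 4.0.16 (R 4.3.3): TMM, filterByExpr by group (17774 of 49315 genes kept), robust quasi-likelihood fit of 6 group means over 30 libraries, contrasts between them and Benjamini-Hochberg adjustment over all genes kept, called under 0.05. CPM used TMM library sizes, and means carry SD over n = 5. TPM entered only alternatives. DESeq2 1.42.0 and limma 3.58.1 (voom) were alternatives. On simulated counts for the macro-met comparison (17353 genes), 80 of 100 genes changed 2-fold and 95 of 100 changed 4-fold were called, and 2 of 17153 unchanged genes were. The changed genes were drawn only from those above a minimum mean CPM. Counts were simulated independently, with no effect of title number and no library set apart. The recovery therefore does not cover genes of low level or such effects. Named genes were Fas and 4 glucocorticoid genes, the 12 largest rises and falls and 5 smallest p-values each way among non-overlapping genes with mean log2 CPM of at least 3, up to 6 called and 3 uncalled members per list, up to 4 per marker list, and genes that differed from DTC or tumours. Some genes that the rule names are not reported here. Members and lists were chosen with earlier results of these data known. Gene annotation was GENCODE M21, and promoters were RefSeq GRCm38.p6.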

Additional observations from a re-analysis of the deposited data

Results flagged for a closer look

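In groups of 5 libraries, 1 library stood off from the other 4 by more than Dixon's 95% limit in 17 of 254 sets of values, where chance gives about 1 in 20. NSG macro-met replicate 3 was the one for its median correlation with the other libraries (0.933), which was low. It was also the one for H2-Ab1 (4.21 CPM), H2-Aa (5.41 CPM), Nr1d1 (133 CPM) and Bdkrb2 (68.6 CPM), all high, and for Gbp2 (32.8 CPM) and Igtp (9.71 CPM), both low. BALB/c macro-met replicate 1 was low for Irf8 (28.9 CPM), Bst2 (114 CPM) and Irf7 (19.8 CPM) and high for the histones Hist1h2bg (42.1 CPM) and Hist1h4i (34.3 CPM). The others were Dusp1 in BALB/c replicate 2 (1457 CPM), Ifit3 (7.44 CPM) and Col6a3 (14.2 CPM) in BALB/c replicate 3, Marco in BALB/c replicate 4 (0.273 CPM) and Psme1 in NSG replicate 4 (320.0 CPM).

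The host difference itself differed between macro-mets and DTC in 5002 genes and between macro-mets and tumours in 929 genes, by the edgeR test of that difference. On the log2 scale, as macro-mets minus DTC, it was 2.87 for C1galt1, 2.20 for Parp14, -1.98 for C1s1, -1.64 for Nr1d1, -1.47 for Il4ra, -1.46 for C1ra and -1.43 for Slc25a48. As macro-mets minus tumours it was 1.83 for Mmp9, 1.80 for Slc4a11, 1.76 for Stra6, 1.56 for Cldn4, -3.42 for Nos2, -1.75 for Cd74, -1.50 for H2-DMa and -1.48 for Irgm2. That of Nr1d1 was -0.92 without NSG replicate 3. That of Stra6 was not called without BALB/c replicate 1, that of Irgm2 without BALB/c replicates 1 or 2 or NSG replicate 1, and that of H2-DMa without BALB/c replicates 1 or 3 or NSG replicate 2.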

How the results depend on the processing

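Of 108 called genes named, 50 kept call and direction in all 24 alternatives. The macro-met counts were 470 called, 335 higher and 135 lower. DESeq2 gave 924 (549 higher, 375 lower), voom 243 lower, the 10 macro-met libraries alone 887 (441 lower), GC and length offsets 913 (451 lower), the fit without the day 23 and day 20 libraries 265 (218 higher, 47 lower) and a test against a fold of 1.5 121 (110 higher, 11 lower). The last tests a larger change, and the day fit has 2 fewer libraries; the cause of the other shifts was not tested. Leaving out 1 macro-met library gave 327 to 443 called, 266 to 348 higher and 61 to 130 lower. The difference from tumours was called for 929 genes and for 1612 with DESeq2. Genes not called that changed sign were Nr3c1 (-0.0182 with the offsets), Krt8 (-0.101 to 0.0100 over left-out libraries) and Krt18 (-0.0172 to 0.164). No paired analysis was possible because the labels give the macro-met libraries no replicate numbers shared between hosts. With 33649294 to 61780104 counts per library, precision is set mainly by the spread between libraries. Genes near 0 CPM, such as Ifng, rest on few counts.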

Other observations

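Several lists outside the interferon and MHC genes had medians away from 0 with few calls in macro-mets. The median log2 fold change was 1.08 for 19 replication-dependent histones (3 called higher with edgeR, 5 with DESeq2 and 0 with voom). It was -0.42 for 21 collagens (2 called lower with edgeR, 5 with DESeq2 and 2 with voom). For 18 clock genes it was -0.32, with 2 called lower with edgeR, 3 lower and 1 higher with DESeq2, and 2 lower and 1 higher with voom. With edgeR, 1.88% of all genes tested were called higher and 0.76% lower.

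Ribosomal protein genes were called higher in BALB/c DTC for 35 of 40 and nuclear oxidative phosphorylation genes for 25 of 36, beside 17.1% of all genes tested. For 22 of 40 and 19 of 36 the host difference was called lower in macro-mets than in DTC, beside 11.6% of all genes. Between the hosts in macro-mets, 0 genes of both lists were called. Neutrophil markers were called higher in BALB/c DTC for 7 of 9. For 6 of these 9 the host difference was called lower in macro-mets than in DTC (4 with voom), and 0 were called between the hosts in macro-mets.

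Of genes with no read in 1 host, 14 called genes were at 0 in every NSG macro-met library and 3 in every BALB/c macro-met library, so their fitted fold changes depend on the prior count.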
